A study of Mus musculus with 7 samples.

Results

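The p53 target genes examined here are 32 mouse genes, namely Trp53, the gene of p53 itself, with named targets and regulators of that transcription factor. They were chosen by name and mapped from the Ensembl identifiers of the deposited tables. All 32 were among the 17422 genes that every table lists, and none was at 0 reads in any library. In every library 28 had at least 1 CPM (reads of a gene per 1000000 of the effective, that is scaled, size of its library). The exceptions were Gdf15, Perp, Fas and Tnfrsf10b.

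RNA was sequenced from 7 libraries of cells sorted for the red fluorescent protein DsRed. Neural precursors of BALB/c embryos at day 14 had received an oncogene and DsRed by retrovirus in culture, in medium with the growth factors bFGF and EGF at 10 ng/ml for every group, and 10 days later 20000 of them were injected into adult BALB/c brains. The 3 EGFRvIII gliomas are described as Ink/Arf -/- cells, which lack the locus that encodes the p53 activator Arf, with EGFRvIII, a truncated and constitutively active epidermal growth factor receptor. The 3 PDGF-B gliomas are described as wild-type cells with PDGF-B, a growth factor that activates the receptor kinase Pdgfra. The reference for both was 1 culture of wild-type neural progenitors transduced with PDGF-B. Every group carries a retroviral oncogene, so none is an untransduced control, and the gliomas differ by label in genotype as well as oncogene. The host mice had their own brain cells and immune system, and the sources used here do not give their age.

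p53 is a transcription factor that is kept low by the ubiquitin ligase Mdm2 and the related protein Mdm4. The Arf protein, made from the Cdkn2a gene, binds Mdm2 and so relieves p53 of this control when oncogenes are active. Stabilised p53 switches on genes that halt the cell cycle, start apoptosis, assist DNA repair and feed back on p53, and loss of this route is common in gliomas. p53 is controlled largely at the level of the protein, which RNA does not measure.

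The labels were first checked against the genes they name, and in all 6 gliomas the driver genes contradicted the label. Egfr stood at 41.2, 26.9 and 25.6 CPM in replicates 1 to 3 labelled EGFRvIII, against 4952, 5109 and 3594 CPM in those labelled PDGF-B and 282 CPM in the culture. Pdgfb stood at 386, 284 and 277 CPM in the gliomas labelled EGFRvIII, against 1.95, 2.97 and 4.88 CPM in those labelled PDGF-B and 245 CPM in the culture. Both differences passed the test across all genes (limma adjusted p = 0.000187 and 0.000838). No library was moved, every group name below is that of the label, and every direction drawn below holds for the libraries as labelled. Olig2 and Sox10, transcription factors of the oligodendrocyte lineage, were at 415 CPM or more in every glioma, and at 555 and 87.7 CPM in the culture. Nes, a neural progenitor marker, was at 1341 CPM in the culture and at 47.3 to 381 CPM in the gliomas.

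Cdkn2a (ENSMUSG00000044303, chromosome 4, 89274471 to 89294653, mm10), the Arf locus gene, was higher in the gliomas whose label says that the locus is deleted. It stood at 22.7, 26.1 and 11.1 CPM in the gliomas labelled EGFRvIII, against 3.52, 2.94 and 4.99 CPM in those labelled PDGF-B. The glioma groups did not overlap, and the culture lay between them at 10.7 CPM. The log2 fold change between the glioma groups was 2.31 ± 0.39 (SE, limma adjusted p = 0.0318), and it passed the test in 1 of the 6 fits that left out a glioma, the one without PDGF-B replicate 3 (adjusted p from 0.0171 to 0.123 over these fits). Against the culture neither group passed, with log2 fold changes of 0.81 ± 0.55 for EGFRvIII and -1.51 ± 0.55 for PDGF-B (SE, limma adjusted p = 0.434 and 0.136). The neighbouring gene Cdkn2b, which encodes another inhibitor of cyclin-dependent kinases, stood at 15.1, 44.1 and 44.4 CPM against 26.9, 20.8 and 43.1 CPM, and the groups overlapped. The sources used here do not say which exons the deletion removes, and reads of Arf and of the Ink4a transcript that shares the gene cannot be told apart in values per gene.

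RefSeq promoter windows (250 bases before to 50 after a transcription start, GRCm38.p6, the assembly of mm10) were matched for 24 of the 32 genes, in 35 windows. They were searched for the p53 response element consensus, a palindrome of 2 decamers taken here without a spacer, which reads the same on both strands. A match with at most 1 base outside the consensus occurred in 3 of the 35 windows, those of Cdkn1a, Ccng1 and Rps27l, and in 0.0883% of all 32851 windows. With at most 2 bases outside, Ckap2 was added, and 0.798% of all windows held a match. The stretches are shown because these genes carry the clearest copies of the sequence that p53 binds, with the matching 20 bases in capitals. In Cdkn1a (chr17:29090729-29090975, plus strand) the match covered positions -51 to -32 relative to an upstream start of the gene, and in Ccng1 (chr11:40755312-40755536, minus strand) positions -195 to -176. In Rps27l (chr9:66946291-66946320, plus strand) and Ckap2 (chr8:22185998-22186027, minus strand) only the match and 5 bases on either side are shown.
Cdkn1a: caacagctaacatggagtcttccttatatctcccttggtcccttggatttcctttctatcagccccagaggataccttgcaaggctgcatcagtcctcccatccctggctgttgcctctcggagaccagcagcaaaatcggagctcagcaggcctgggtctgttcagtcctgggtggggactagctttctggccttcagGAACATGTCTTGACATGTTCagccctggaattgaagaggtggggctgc
Ccng1: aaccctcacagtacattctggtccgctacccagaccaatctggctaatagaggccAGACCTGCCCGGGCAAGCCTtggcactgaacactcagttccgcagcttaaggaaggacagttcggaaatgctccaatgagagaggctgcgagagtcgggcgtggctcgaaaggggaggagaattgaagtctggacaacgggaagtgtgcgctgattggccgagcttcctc
Rps27l: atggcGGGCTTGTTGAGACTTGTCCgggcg
Ckap2: tctgaAGACATGTCCTGACTTGTCAagcct
A match describes these letters only, and the windows leave out sites farther from the start or within introns.

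The first comparison asked how the p53 targets differ between the gliomas of the EGFRvIII and the PDGF-B model. The glioma groups overlapped in Trp53, Mdm2 and Mdm4, while the levels of most arrest and apoptosis genes were higher in the gliomas labelled EGFRvIII. Pmaip1, Btg2 and Eda2r rose past the test, with log2 fold changes of 2.53, 2.40 and 2.45. No gene of the 32 fell, and at an unadjusted limma p under 0.05 the counts were 20 higher (10.2% of all genes) and 0 lower (6.49%). Of all 17422 genes, 2.63% were called higher and 0.717% lower, so that 3 of 32 is a larger share than the background, from few genes. The median log2 fold change was 0.88 over the 32 genes and 0.00015 over all genes tested. All 3 gliomas labelled EGFRvIII lay above all 3 labelled PDGF-B in 19 of the 32 genes and below them in 1, Ddb2. Over all genes these shares were 12.6% above and 10.3% below. In a fit that left out 1 glioma, between 0 and 5 of the 32 were called and the median ranged from 0.64, without EGFRvIII replicate 2, to 1.22, without EGFRvIII replicate 1. Only the fit without PDGF-B replicate 3 kept any of the calls, and it called Pmaip1, Btg2, Eda2r, Psrc1 and Gdf15.

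**Figure D1:**
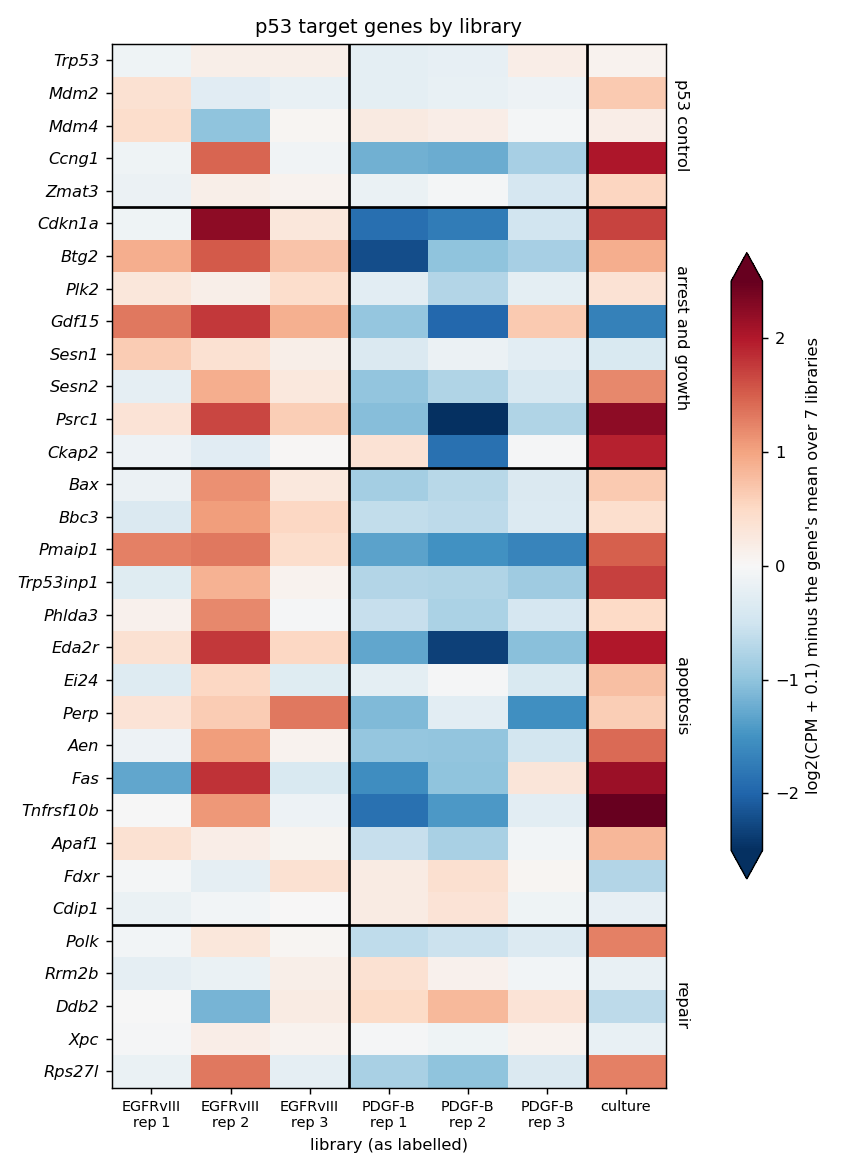
Level of the 32 p53 target genes (rows, grouped by role) in the 7 libraries (columns), as log2(CPM + 0.1) minus the mean of the gene over all libraries. Red is above and blue below that mean; most arrest and apoptosis rows are blue in the 3 libraries labelled PDGF-B, and EGFRvIII replicate 2 and the culture are the reddest columns.

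Among the genes that control p53, the glioma groups overlapped in 4 of 5. Of all genes, 12.6% lay without overlap higher in the gliomas labelled EGFRvIII and 10.3% lower. Trp53 (ENSMUSG00000059552, chromosome 11, 69580359 to 69591873) stood at 70.4, 84.2 and 83.7 CPM in the gliomas labelled EGFRvIII, against 64.0, 65.8 and 85.1 CPM in those labelled PDGF-B. The groups overlapped, at a log2 difference of 0.16 ± 0.18 (SE; adjusted p = 0.681 in limma), and an exact two-sided permutation test gave p = 0.4, where 0.1 is the smallest that 3 against 3 allows. Mdm2 (ENSMUSG00000020184, chromosome 10), itself a p53 target that degrades p53, stood at 115, 72.6 and 78.1 CPM against 74.5, 78.4 and 81.1 CPM. Only EGFRvIII replicate 1 stood apart from the other gliomas in Mdm2, with a log2 fold change of 0.15 ± 0.21 between the groups (SE, limma adjusted p = 0.723, exact permutation p = 0.9). Mdm4, which binds p53 and blocks its activity, stood at 328, 119 and 250.2 CPM against 279.9, 271 and 233 CPM. Its lowest value was in EGFRvIII replicate 2, the glioma with the highest level of the 6 in most of the 32 genes. Zmat3, an RNA-binding protein induced by p53, ranged from 105 to 128 CPM against 86.3 to 113 CPM.

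Ccng1 (ENSMUSG00000020326, chromosome 11), cyclin G1, which recruits a phosphatase to Mdm2, was the exception in this group. It stood at 138, 411 and 139.8 CPM in the gliomas labelled EGFRvIII, against 64.5, 63.2 and 83.7 CPM in those labelled PDGF-B. The groups did not overlap, but EGFRvIII replicate 2 was 2.98 times as high as the lowest of its own group, and the gene did not pass (log2 fold change 1.51 ± 0.42, SE, limma adjusted p = 0.120).

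Of the 8 genes of cell cycle arrest and growth control, 1 rose and 0 fell, against 2.63% and 0.717% of all genes. In 7 of the 8 every glioma labelled EGFRvIII lay above every glioma labelled PDGF-B, against 12.6% of all genes. Their median log2 fold change was 1.60. Btg2 (ENSMUSG00000020423, chromosome 1, 134075170 to 134079120), an antiproliferative gene that slows the passage from G1 to S phase, stood at 55.2, 84.4 and 47.7 CPM in the gliomas labelled EGFRvIII, against 6.23, 14.4 and 16.5 CPM in those labelled PDGF-B. Btg2 passed the test at a log2 fold change of 2.40 ± 0.40 (SE, adjusted p = 0.0315 in limma), and the lowest EGFRvIII value was far above the highest PDGF-B value. Btg2 is also an early-response gene. Of 18 other early-response genes 3 were called higher in the same gliomas, against 2.63% of all genes. A link between these genes and the level of Btg2 was not tested.

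Cdkn1a (ENSMUSG00000023067, chromosome 17, 29090976 to 29100727), which encodes the cyclin-dependent kinase inhibitor p21 and is the best known arrest target of p53, varied more than any other arrest gene among the gliomas labelled EGFRvIII. It stood at 88.8, 453 and 117 CPM there, against 26.0, 28.6 and 69.2 CPM in those labelled PDGF-B. The groups did not overlap, although replicate 1 labelled EGFRvIII was close to replicate 3 labelled PDGF-B. Cdkn1a did not pass the test (log2 fold change 2.17 ± 0.65, SE, limma adjusted p = 0.142), and the exact two-sided permutation test gave p = 0.1, the smallest it can give. Its exons overlap those of another annotated gene on the opposite strand, and strand is not stated for these libraries.

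Psrc1, a spindle protein that p53 also regulates, stood at 33.7, 84.8 and 40.7 CPM in the gliomas labelled EGFRvIII, against 12.7, 3.12 and 15.7 CPM in those labelled PDGF-B (log2 fold change 2.502 ± 0.64, SE, limma adjusted p = 0.0926). Gdf15, a secreted stress cytokine, was low throughout, at 3.53, 4.81 and 2.59 CPM against 0.641, 0.273 and 2.18 CPM (log2 fold change 2.16 ± 0.70, SE, limma adjusted p = 0.175). Neither passed with all 6 gliomas, and both passed without PDGF-B replicate 3 (limma adjusted p = 0.0446 for Psrc1 and 0.0215 for Gdf15), the library that lay nearest to the gliomas labelled EGFRvIII in Cdkn1a, Btg2 and Gdf15.

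The sestrins Sesn1 and Sesn2, which restrain growth signalling under stress, ranged from 41.7 to 58.2 CPM and from 30.8 to 67.8 CPM in the gliomas labelled EGFRvIII. In those labelled PDGF-B they ranged from 29.1 to 33.6 CPM and from 18.1 to 27.3 CPM, without overlap in either gene. Plk2, a stress-induced polo-like kinase, stood at 291, 266 and 325 CPM against 198, 144 and 203 CPM (log2 fold change 0.71 ± 0.20, SE, limma adjusted p = 0.130). Ckap2, a spindle-associated protein, was the arrest-group gene whose glioma groups overlapped, at 54.6, 49.0 and 60.6 CPM against 76.7, 16.2 and 58.4 CPM.

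**Figure D2:**
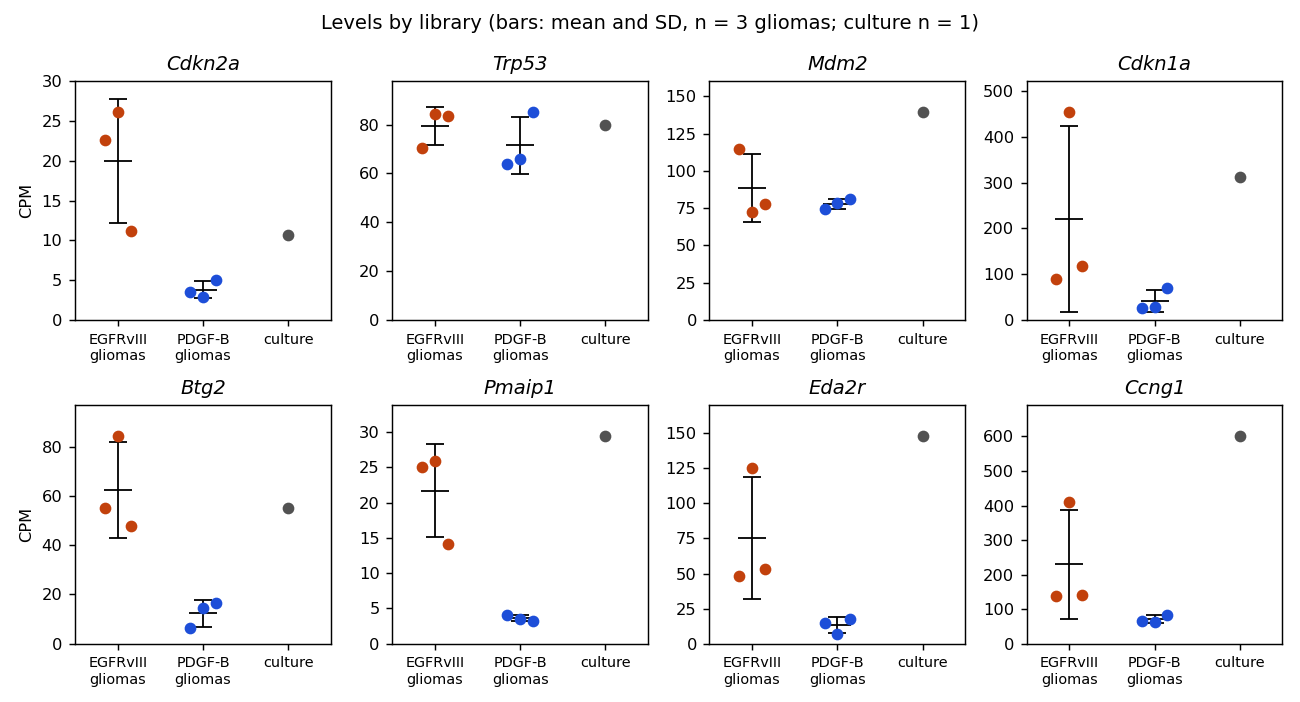
CPM of Cdkn2a, Trp53, Mdm2, Cdkn1a, Btg2, Pmaip1, Eda2r and Ccng1 in each library (points), with the mean and SD of the 3 gliomas of each label (bars); the culture is 1 library. Trp53 ranged from 64.0 to 85.1 CPM over all 7 libraries, while Pmaip1 was at 14.2 CPM or more in the gliomas labelled EGFRvIII and at 4.05 CPM or less in those labelled PDGF-B.

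Of the 14 apoptosis genes, 2 rose and 0 fell, with a median log2 fold change of 1.01, and in 9 every glioma labelled EGFRvIII lay above every glioma labelled PDGF-B. The shares over all genes were 2.63% called higher, 0.717% called lower and 12.6% with this order. Pmaip1 (ENSMUSG00000024521, chromosome 18), which encodes Noxa, a protein that neutralises the survival factor Mcl1, stood at 25.1, 25.9 and 14.2 CPM against 4.05, 3.55 and 3.22 CPM. The PDGF-B values lay within 1.26 times of each other, and the log2 fold change was 2.53 ± 0.31 (SE, adjusted p = 0.0245 in limma). Eda2r (ENSMUSG00000034457, chromosome X, 97333840 to 97377216), a receptor of the tumour necrosis factor receptor family, stood at 48.1, 125 and 52.96 CPM against 15.03, 7.24 and 17.9 CPM. Its groups were well apart (log2 fold change 2.45 ± 0.47, SE; adjusted p = 0.0400 in limma).

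Bax, Bbc3, Apaf1 and Fdxr, further genes of the apoptosis group, did not pass. Bax, the pore-forming effector of apoptosis, stood at 56.2, 138 and 75.3 CPM against 34.7, 38.8 and 48.4 CPM (log2 fold change 1.05 ± 0.33, SE, limma adjusted p = 0.165). Bbc3, which encodes the BH3-only protein Puma, stood at 6.97, 18.7 and 12.9 CPM against 5.85, 5.67 and 7.09 CPM, and its groups overlapped. The log2 fold change of Bbc3, whose product acts alongside Noxa, was 0.94 ± 0.38 (SE, limma adjusted p = 0.281). Apaf1, the scaffold of the apoptosome, ranged from 34.1 to 42.5 CPM against 18.7 to 31.4 CPM. Fdxr, a mitochondrial reductase induced by p53, ranged from 13.1 to 20.03 CPM against 15.96 to 20.4 CPM.

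The other apoptosis genes without overlap were Trp53inp1, Phlda3, Aen, Perp and Tnfrsf10b. Trp53inp1, a nuclear cofactor of p53, stood at 75.9, 171 and 99.6 CPM against 56.6, 55.8 and 50.6 CPM. Phlda3, a repressor of Akt signalling, ranged from 41.0 to 96.3 CPM against 24.1 to 31.5 CPM, and Aen, a nuclease, from 47.6 to 108 CPM against 26.4 to 37.7 CPM. The log2 fold changes of these genes were 1.00, 1.02 and 1.14, and none passed (limma adjusted p = 0.134, 0.178 and 0.131). The death receptor genes Tnfrsf10b and Fas were low, at 3.12, 6.73 and 2.84 CPM against 0.789, 1.09 and 2.60 CPM for Tnfrsf10b, and at 0.402, 4.21 and 0.845 CPM against 0.320, 0.515 and 1.43 CPM for Fas. In Fas the groups overlapped and EGFRvIII replicate 2 was 10.5 times as high as replicate 1. Perp, a desmosomal p53 target, stayed below 2 CPM in all gliomas. Ei24 and Cdip1, membrane proteins induced by p53, ranged from 91.8 to 163 CPM against 88.4 to 112 CPM and from 101 to 116 CPM against 105 to 145 CPM, with overlap in both.

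The 5 genes of DNA repair and nucleotide supply showed no call and a median log2 fold change of 0.10. With 2.63% of all genes called higher and 0.717% lower, 5 genes are too few to set this apart from the background. Ddb2, the damage-binding subunit that opens nucleotide excision repair, was the gene with lower values in every glioma labelled EGFRvIII, at 9.44, 4.16 and 10.9 CPM against 13.2, 16.7 and 12.1 CPM (log2 fold change -0.87 ± 0.39, SE, limma adjusted p = 0.323). Xpc, which recognises damage in the same route, ranged from 17.6 to 20.1 CPM against 16.5 to 18.8 CPM, and Rrm2b, the p53-inducible ribonucleotide reductase subunit, from 20.9 to 26.9 CPM against 23.4 to 31.9 CPM. Polk, a translesion polymerase, stood at 16.6, 21.3 and 18.2 CPM against 11.3, 12.1 and 13.8 CPM, with groups that did not overlap and little spread inside either (log2 fold change 0.59 ± 0.21, SE; adjusted p = 0.216 in limma). Rps27l, a ribosomal protein paralogue whose reads may be shared with Rps27, stood at 22.9, 64.8 and 22.1 CPM against 14.6, 12.8 and 20.03 CPM.

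**Figure D3:**
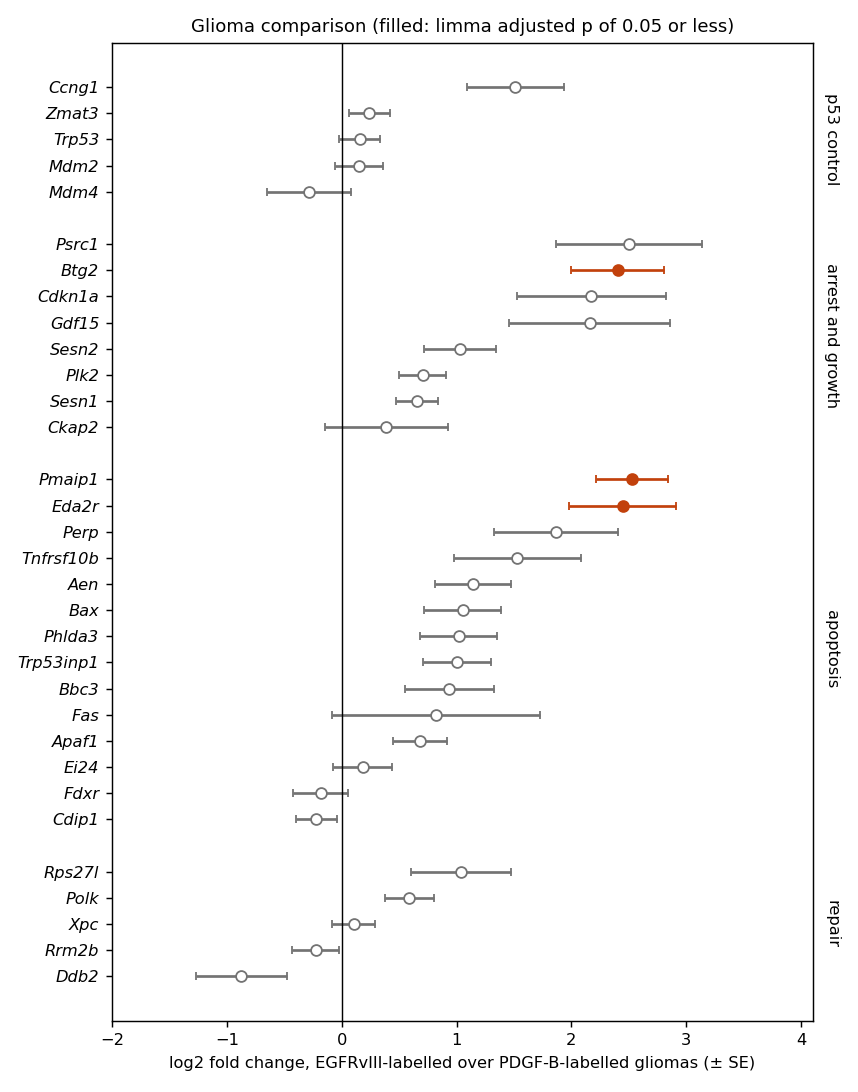
Log2 fold change of each of the 32 genes, gliomas labelled EGFRvIII over those labelled PDGF-B (points, with SE; n = 3 against 3), grouped by role. Filled points passed the test (limma adjusted p of 0.05 or less), namely Pmaip1, Eda2r and Btg2; 27 of the 32 points lie above 0, against 50% of all genes.

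EGFRvIII replicate 2 had the highest level of the 6 gliomas in 20 of the 32 genes (62.5%), against 32% of all genes. Among these were Cdkn1a, Ccng1, Bax, Eda2r and Aen. The same library had the lowest Mdm2, Mdm4, Ddb2 and Fdxr of the gliomas. Without it the median log2 fold change of the 32 genes was 0.64, 26 were above 0 and none was called, in a fit that called 15 genes in all.

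In the second comparison, the reference for the gliomas labelled PDGF-B was the culture that carries the same oncogene by label. Most p53 targets were lower in these gliomas. Of the 32 genes 10 fell, and none rose. At an unadjusted limma p under 0.05, 1 was higher, against 17% of all genes, and 20 were lower, against 1770 of all 17422 genes. The 10 that fell were Psrc1, Tnfrsf10b, Eda2r, Ccng1, Pmaip1, Trp53inp1, Btg2, Aen, Sesn2 and Polk, with log2 fold changes from -3.87 to -1.77. Over all genes 1.73% were called lower and 7.73% higher, and the median log2 fold change was -1.30 over the 32 genes and 0.037 over all genes. Of the apoptosis genes 5 fell, of the arrest genes 3, and 1 each of the control and repair genes. Every glioma labelled PDGF-B lay below the culture in 23 of the 32 genes, against 38% of all genes. The culture has 1 library, so the spread comes from the 6 gliomas, and it is assumed to vary as they do. The number of calls ranged from 4, without PDGF-B replicate 1, to 14, without EGFRvIII replicate 2, and was 6 with voom weights. Pmaip1, Trp53inp1, Eda2r and Polk passed in all 6 fits without a glioma and in the 5 other alternatives.

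Ccng1 had the highest level per kilobase of exon among the 32 genes in the culture, at 171 CPM per kb, against 20.1 CPM per kb in the gliomas labelled PDGF-B (mean, n = 3). In CPM it stood at 64.5, 63.2 and 83.7 in these gliomas and at 602 in the culture (log2 fold change -3.10 ± 0.60, SE, limma adjusted p = 0.0215). Tnfrsf10b stood at 0.789, 1.09 and 2.60 CPM in the gliomas labelled PDGF-B against 19.6 CPM in the culture (log2 fold change -3.84 ± 0.77, SE, limma adjusted p = 0.0249). Eda2r stood at 15.03, 7.24 and 17.9 CPM against 148 CPM (log2 fold change -3.56 ± 0.65, SE, limma adjusted p = 0.0182). Both encode receptors of the tumour necrosis factor receptor family, and each of the 3 gliomas was far below the culture in them.

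Pmaip1 had the smallest adjusted p of the 32 genes in this comparison, with 4.05, 3.55 and 3.22 CPM in the gliomas labelled PDGF-B against 29.5 CPM in the culture (log2 fold change -3.02 ± 0.43, SE, limma adjusted p = 0.00726). Trp53inp1 stood at 56.6, 55.8 and 50.6 CPM against 305 CPM (log2 fold change -2.49 ± 0.41, SE, limma adjusted p = 0.0126). Polk, the repair gene that fell, stood at 11.3, 12.1 and 13.8 CPM against 42.1 CPM (log2 fold change -1.77 ± 0.29, SE, limma adjusted p = 0.0118). Psrc1, at 12.7, 3.12 and 15.7 CPM against 126 CPM, had the largest fold change and was lowest in PDGF-B replicate 2, a library with few mitotic transcripts. Btg2 only just passed, at 6.23, 14.4 and 16.5 CPM against 55.1 CPM (limma adjusted p = 0.0499).

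Cdkn1a stood at 26.0, 28.6 and 69.2 CPM in the gliomas labelled PDGF-B against 313 CPM in the culture, and it did not pass (log2 fold change -3.07 ± 0.91, SE, limma adjusted p = 0.0811). It passed without PDGF-B replicate 3 and without EGFRvIII replicate 2, with limma adjusted p of 0.0458 and 0.0326. Bax, Phlda3 and Bbc3 stood at 98.3, 59.3 and 12.01 CPM in the culture, above every glioma labelled PDGF-B, and did not pass. Mdm2 stood at 139 CPM in the culture, above all 6 gliomas (log2 fold change -0.84 ± 0.30 for PDGF-B, SE, limma adjusted p = 0.124). Trp53 was at 79.9 CPM there, within the range of the gliomas. Sesn1, Fdxr, Cdip1 and Xpc ran the other way, with the culture below all 6 gliomas in levels of 28.7, 9.20, 99.6 and 15.7 CPM, and none passed.

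The third comparison set the gliomas labelled EGFRvIII against the same culture, which differs from them by label in oncogene and genotype. Here 1 of the 32 genes fell, Polk, and none rose, against 1.34% of all genes called lower and 8.2% called higher. At an unadjusted limma p under 0.05, 2 were higher, against 16.2% of all genes, and 5 were lower, against 1330 of all 17422 genes. Polk stood at 16.6, 21.3 and 18.2 CPM in these gliomas against 42.1 CPM in the culture (log2 fold change -1.18 ± 0.29, SE; adjusted p = 0.0458 in limma). The median log2 fold change was -0.50 over the 32 genes and 0.013 over all genes. The number called ranged from 0, without PDGF-B replicate 1 or without EGFRvIII replicate 1 or 3, to 6, without EGFRvIII replicate 2; the 6 were Ccng1, Polk, Trp53inp1, Aen, Rps27l and Ei24, all lower. Polk passed in 2 of the 6 fits, those without EGFRvIII replicate 2 or PDGF-B replicate 3.

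Of the 10 targets that fell in the gliomas labelled PDGF-B, 9 also had a lower level in every glioma labelled EGFRvIII than in the culture, and Btg2 was the exception. This order held in 15 of the 32 genes and in 5159 of all 17422 genes. The 10 were picked for low levels against the same culture library, so the 9 of 10 is not independent of that choice. Btg2 stood at 55.2, 84.4 and 47.7 CPM against 55.1 CPM, and Pmaip1 at 25.1, 25.9 and 14.2 CPM against 29.5 CPM (log2 fold changes 0.14 ± 0.57 and -0.49 ± 0.43, SE, limma adjusted p = 0.918 and 0.548). Further below the culture, and without passing, Ccng1 stood at 138, 411 and 139.8 CPM against 602 CPM, and Tnfrsf10b at 3.12, 6.73 and 2.84 CPM against 19.6 CPM (limma adjusted p = 0.158 and 0.118). Gdf15 was the gene with the largest fold change upward, at 3.53, 4.81 and 2.59 CPM against 0.347 CPM (log2 fold change 3.15 ± 1.00, SE, limma adjusted p = 0.102), and it passed in the fit without PDGF-B replicate 3 (limma adjusted p = 0.0279). The 2 culture comparisons share their culture library, and the first and second share the gliomas labelled PDGF-B, so their results are not independent of each other.

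**Figure D4:**
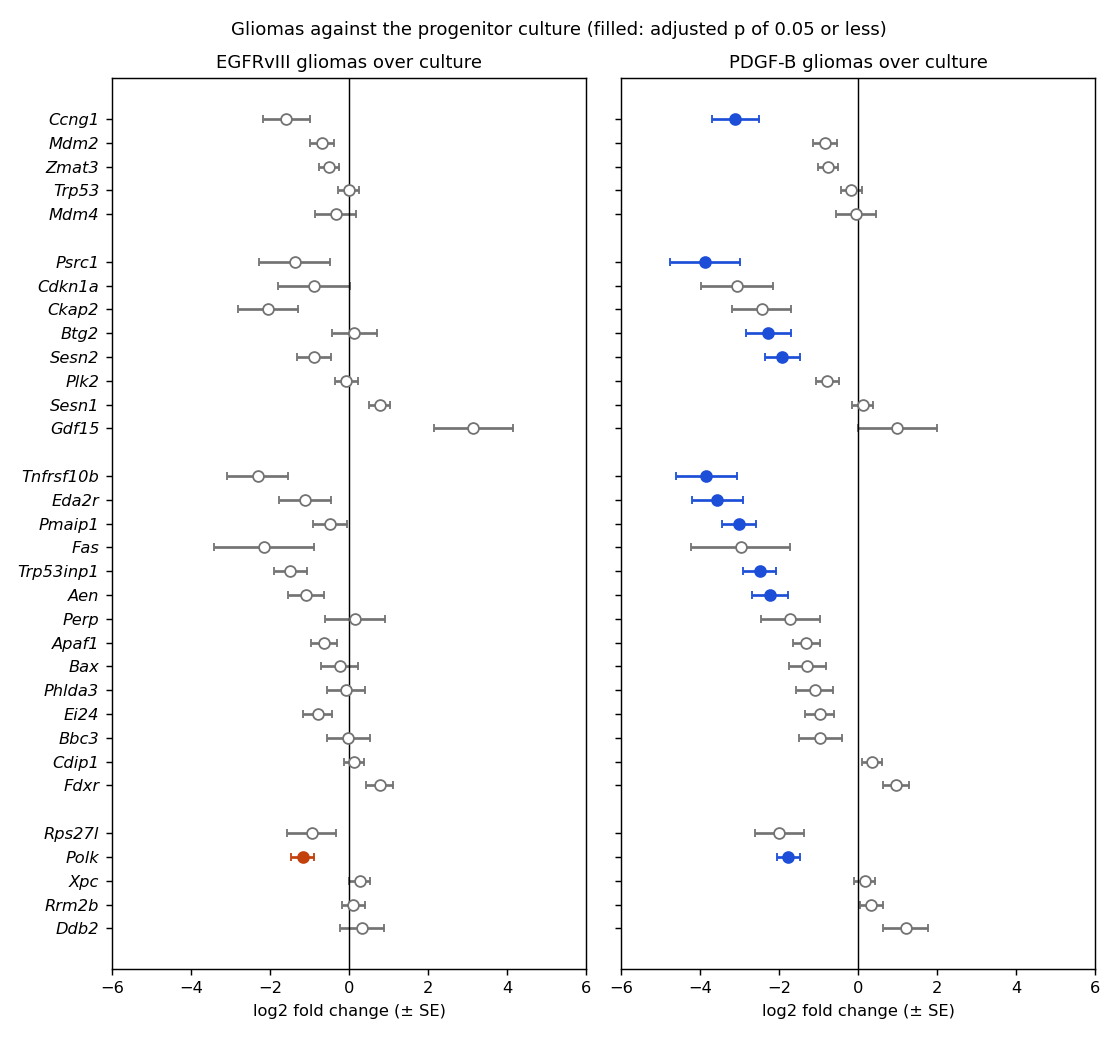
Log2 fold change over the culture of each of the 32 genes in the gliomas labelled EGFRvIII (left) and PDGF-B (right), with SE (3 gliomas against 1 culture; spread from the gliomas). Filled points passed the test (limma adjusted p of 0.05 or less): Polk on the left and 10 genes on the right, all below 0.

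Set in order of level, 10 of the 32 genes had the culture above every glioma labelled EGFRvIII and each of these above every glioma labelled PDGF-B, an order found in 1.48% of all genes and looked for after the values were seen. These were Ccng1, Sesn2, Psrc1, Pmaip1, Trp53inp1, Eda2r, Aen, Tnfrsf10b, Apaf1 and Polk. Cdkn2a did not follow this order, since its highest levels were in the gliomas labelled EGFRvIII. The culture was above all 6 gliomas in 15 of the 32 genes, against 24% of all genes, and below all 6 in 4, against 27.8%.

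Per kilobase of exon, the level in the gliomas labelled EGFRvIII was highest for Plk2, Ccng1, Cdkn1a and Bax, at 65.5, 65.4, 61.9 and 57.0 CPM per kb, and in those labelled PDGF-B for Plk2 and Bax, at 40.5 and 25.8 CPM per kb (means, n = 3). The single gliomas labelled EGFRvIII overlap between these 4 genes, so their order is not resolved. Trp53, Mdm2 and Mdm4 lay between 15.3 and 27.4 CPM per kb in the means of all 3 groups. The lowest levels in the gliomas labelled PDGF-B were those of Perp and Tnfrsf10b, at 0.167 and 0.274 CPM per kb.

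Of 18 kinases, acetylases, ubiquitin enzymes and other regulators that act on p53, 16 were measured (Trp63 and Trp73 were not analysed here), and none was called in any of the 3 comparisons. Their median log2 fold changes were -0.18 between the glioma groups, -0.083 for PDGF-B over the culture and -0.28 for EGFRvIII over the culture. At an unadjusted limma p under 0.05 the counts were 0, 2 and 0, the 2 being lower. Over all genes these counts were 1775, 2963 and 2827 higher and 1131, 1770 and 1330 lower. Of 24 further p53 targets outside the 32, 2 were called higher and none lower between the glioma groups, with a median of 0.45. Over all genes 2.63% were called higher and 0.717% lower. Dcxr, a carbonyl reductase, stood at 10.3 ± 6.16 CPM in the gliomas labelled EGFRvIII and 1.83 ± 0.722 CPM in those labelled PDGF-B (SD, n = 3 each). The fitted log2 difference of Dcxr was 2.37 ± 0.48 (SE, limma adjusted p = 0.0482). Pltp, a phospholipid transfer protein, averaged 15.01 ± 2.55 CPM in the gliomas labelled EGFRvIII and 1.48 ± 1.75 CPM in those labelled PDGF-B (SD, n = 3 each). For Pltp the log2 difference was 3.90 ± 0.74 (SE, limma adjusted p = 0.0395).

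Against the culture, Trp53i11 fell in both glioma groups, to 8.88 ± 2.08 CPM in the gliomas labelled EGFRvIII and 9.32 ± 3.04 CPM in those labelled PDGF-B (SD, n = 3 each), against 73.1 CPM in the culture (limma adjusted p = 0.00533 and 0.00748). Tgfa, a ligand of the epidermal growth factor receptor, rose in both, to 191 ± 18.7 and 293 ± 94.5 CPM (SD, n = 3 each) against 62.0 CPM (limma adjusted p = 0.0422 and 0.0157). Steap3, a metalloreductase, rose in the gliomas labelled EGFRvIII, to 6.70 ± 1.93 CPM (SD, n = 3), where the culture had 0.955 CPM (limma adjusted p = 0.0329).

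Markers of other cells, of cell state and of handling also differed between libraries, and their part in these results was not tested. All 20 microglia and macrophage markers were measured and 19 were called higher in the gliomas labelled EGFRvIII, against 2.63% of all genes. Their summed level was 9006 to 19986 CPM there, with the top in replicate 2, against 624 to 2514 CPM in the gliomas labelled PDGF-B. In the culture the same markers summed to 22.8 CPM, and Trem2, C1qb, Tyrobp and Spi1 were at 0 reads. Of 18 immediate early genes, which respond to dissociation, 3 were called higher in the gliomas labelled EGFRvIII, against 2.63% of all genes. The 18 genes summed to 3233 to 4435 CPM in these gliomas, 1557 to 3406 CPM in those labelled PDGF-B and 4082 CPM in the culture. The sum is weighted to abundant genes, and the mean log2 CPM of the 18 gave another order. That mean was 6.87 to 7.44 in the gliomas labelled EGFRvIII, 5.52 to 6.51 in those labelled PDGF-B and 5.58 in the culture. The 15 mitosis genes summed to 1039 to 1481 CPM in the gliomas labelled EGFRvIII, to 1515, 199 and 1585 CPM in replicates 1 to 3 labelled PDGF-B, and to 3960 CPM in the culture. The 8 neural progenitor markers summed to 1616 to 2460 CPM in the gliomas labelled EGFRvIII, to 871 to 2340 CPM in those labelled PDGF-B and to 7694 CPM in the culture. Of 8 astrocyte, 8 myelinating oligodendrocyte and 8 mature neuron markers, 1, 2 and 0 were called lower in the gliomas labelled EGFRvIII, and none higher. Of the 8 oligodendrocyte precursor markers 2 were called lower in these gliomas, against 0.717% of all genes. The 8 precursor markers summed to 5197 to 5724 CPM in the gliomas labelled EGFRvIII, 6407 to 13081 CPM in those labelled PDGF-B and 2047 CPM in the culture. The 9 endothelial markers measured, of 11, summed to 30.4 to 42.4 CPM, 32.5 to 63.7 CPM and 31.3 CPM, with Cdh5 and Cldn5 at 0 reads in the culture. Their mean log2 CPM ran otherwise, at 1.10 to 1.61, 0.10 to 0.74 and -0.71 in the same order, and 0 were called between the glioma groups. Cd4 alone was measured of 10 lymphocyte markers. In sorted bulk RNA, fewer cells that express a gene and less RNA of it per cell cannot be told apart.

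**Figure D5:**
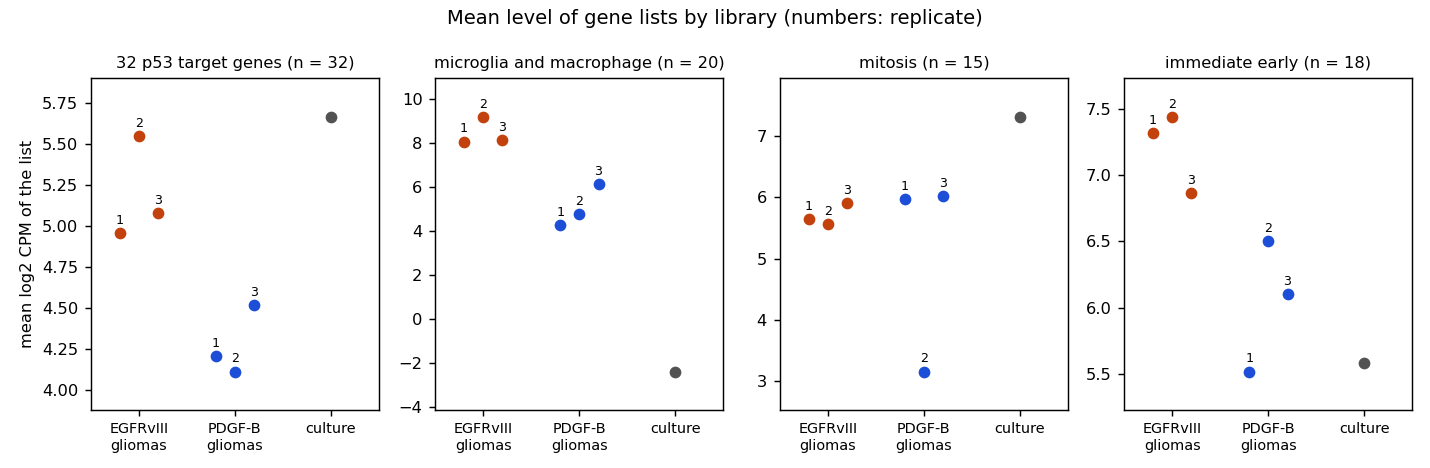
Mean log2 CPM of the 32 p53 target genes and of microglia and macrophage, mitosis and immediate early genes in each library (points; the number above a glioma is its replicate, n is the number of genes). The mean of the 32 genes was 4.96 to 5.55 in the gliomas labelled EGFRvIII, 4.11 to 4.52 in those labelled PDGF-B and 5.67 in the culture. The microglia and macrophage mean was 8.07 to 9.20, 4.29 to 6.14 and -2.39 in the same order.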

How the data were processed

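The deposited values are log2 CPM, as the authors' headers state for all but EGFRvIII replicate 3. That table states no unit but shares the lowest value of the others (-4.12). STAR, edgeR and mm10 are named in the submitters' processing notes, without versions; the sources used here do not give the quantifier, scaling, gene filter or strand. The values above the floor were multiples of 0.01 read, so they derive from estimated counts with a prior of 2. The recovered totals were 32513754 to 39062584 reads per library, and the CPM printed here are recovered reads over the authors' effective library sizes. The total was above the effective size in EGFRvIII replicate 2 (39062584 against 33454305) and in the culture (36061670 against 34547951). It was below the effective size in every other glioma. Symbols came from GENCODE M21 (GRCm38; 17247 of 17422 IDs).

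Deposited log2 values were tested with limma 3.58.1 in R 4.3.3 (intensity trend, robust), adjusted by Benjamini-Hochberg over all 17422 genes and called at 0.05. Fold changes are on the log2(CPM with prior) scale and understate low genes. The first comparison used the 6 gliomas, the others all 7 libraries in 3 groups. The scripts were tested on simulated data. The members and lists were chosen with earlier results of these data known. Named were all 32 members, the Arf locus and driver genes, and the called genes of 2 other pathway lists, apart from a result that is not reported here. By library, the text gives Cdkn2a, Trp53, Mdm2, Cdkn1a, called members, those of largest fold change and further members. Exons of 6 members overlap another gene, 5 of them (Cdkn1a, Ei24, Cdip1, Rrm2b and Ddb2) on the opposite strand.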

Additional observations from a re-analysis of the deposited data

Results flagged for a closer look

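The 32 p53 target genes, Cdkn2a, Egfr and Pdgfb were searched for genes in which the glioma groups lay on opposite sides of the culture. In Cdkn2a, Egfr and Pdgfb, every glioma of one label lay above the culture and every glioma of the other label below it, so that the difference from the culture had opposite directions in the glioma groups. The difference between the groups was tested in the fit of all 7 libraries, EGFRvIII over PDGF-B. For Cdkn2a it was 2.31 on the log2 scale (limma adjusted p = 0.0327), with the gliomas labelled EGFRvIII, described as lacking the locus, above the culture. For Egfr it was -7.20 (limma adjusted p = 0.000161) and for Pdgfb 6.65 (limma adjusted p = 0.000991). None of the 32 p53 target genes met this pattern.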

How the results depend on the processing

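No member that passed in any comparison, nor Cdkn2a, Egfr or Pdgfb, changed direction where it passed. The sign of the log2 fold change differed under some alternative for 14 of the members' values that did not pass, 5 of them between the glioma groups (Mdm2, Mdm4, Ckap2, Ei24 and Fas). Scaling on the median, prior counts of 0.5 and 5 reads, a minimum of 1 CPM in 3 libraries (which removed Perp and Fas), voom weights and a fit of all 7 libraries left the glioma comparison at 3 called members each. The labels number the gliomas as biological replicates and name no pairing. Correlations of deviations were 0.20, -0.055 and -0.11 for replicates 1 to 3, and -0.285 to 0.243 between gliomas of unlike number. With 3 gliomas per group these values cannot exclude a pairing. With the replicate numbers as a block, 18 genes and 0 members were called, and Cdkn2a had a log2 fold change of 2.31 (limma adjusted p = 0.0855). Leaving out 1 glioma gave 4 to 1282 called genes, 0 to 5 called members and a Cdkn2a log2 fold change of 2.08 to 2.69 in the glioma comparison. It gave 854 to 2303 genes and 4 to 14 members for PDGF-B over the culture, and 1058 to 2030 genes and 0 to 6 members for EGFRvIII over the culture. In the 3 comparisons 583, 1647 and 1663 genes were called with all libraries. Voom weights gave 553 genes and 6 members for PDGF-B over the culture and 721 genes for EGFRvIII over the culture, and median scaling gave 2 members there, Polk and Trp53inp1. The cause was not tested. Fas, Perp, Gdf15 and Tnfrsf10b have few reads, which limits their precision.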

Other observations

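PDGF-B replicate 2 had low levels of several p53 pathway genes that are expressed with mitosis. Gtse1, a p53 target that acts in G2 phase, stood at 15.7, 3.39 and 20.2 CPM in replicates 1 to 3 labelled PDGF-B, and the checkpoint kinase genes Chek1 and Chek2 at 19.7, 4.15 and 22.6 CPM and at 10.9, 2.08 and 10.8 CPM. Ckap2 and Psrc1 were lowest of all libraries in the same glioma, where Mki67, a proliferation marker, stood at 64.6 CPM, against 512 and 554 CPM in replicates 1 and 3. These genes were picked after their values were seen. Without this library the log2 fold change of Psrc1 between the glioma groups was 1.78 and that over the culture -3.15.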
